A study of Danio rerio with 18 samples.

Results

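The 73 transcripts described here share a course in control zebrafish embryos. Each was higher at every later time between 36 and 60 hours after fertilisation, and none carried a zebrafish gene name in its array description. What each one had in place of a name was a similarity, graded weak, moderate or strong, to a protein of another species. The 73 probe sets were chosen from 15502, of which 11626 passed a filter on dim values and 4026 of those were described by a protein similarity. A member had to lie at least 1.5 log2 units higher at 60 than at 36 hours in the mean of the control arrays, with both steps, 36 to 48 and 48 to 60 hours, at least 0.3. The control arrays therefore chose the transcripts, and their values are given as a description, with no test. The rule on the control course did not use the course of the same transcripts in morphant embryos. Morphant arrays entered the choice through the filter on the mean over all 18 arrays. A transcript dim at 36 hours could pass that filter through high later arrays, morphant ones included. Without the filter 145 probe sets with a protein similarity met the rule, so the morphant course is not fully free of the choice.

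The morphants had received, as 1-cell embryos, an antisense morpholino directed at cardiac troponin T2 (tnnt2), without which the heart forms but does not beat. The controls are called wild type of the AB strain in the sample titles, while the design text has them injected with a control morpholino. Total RNA of whole embryos was measured at 36, 48 and 60 hours on an Affymetrix zebrafish array, with 3 arrays for each kind of embryo at each time. One protocol names 32 hours as the first time, and the 36 of the titles is used here. Each array is a pool of embryos in which every pair of parents had the same share. Whether arrays of one group stand for separate clutches is unstated, so a p-value covers only the spread of these arrays, which may be technical.

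Between these times a zebrafish embryo turns from laying down its organs to making them work. Neurons grow axons and form synapses, lens fibres fill with crystallins, the skin gains keratins, and trunk muscle, already contracting, adds proteins for sustained work. An embryo of this size receives enough oxygen by diffusion, so one without a heartbeat lives through all 3 times. A similarity names the protein most like the transcript's translated sequence at the time the array was described. It is not the zebrafish gene's own name, and a weak similarity can mark a family rather than a gene.

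The similarities were graded weak for 45 of the 73 (61.6%), moderate for 19 (26%) and strong for 9 (12.3%), beside 62.2%, 30.2% and 7.6% among all 4026 described probe sets. Human proteins were the most similar for 70 members, mouse proteins for 2 and a protein of the worm Caenorhabditis elegans for 1. The members came from 71 UniGene clusters and matched 70 distinct protein entries, since astrotactin 1, c-fos and stromal cell derived factor receptor 1 (SDFR1) were each matched by a pair of probe sets. Steady rises were found for 1.81% of the described probe sets and for 2.32% of the other 7600. A median of 3 expressed sequence tags stood behind a member, against 5 behind a described probe set. Clone names led to a current symbol for 3 members, nptna for one of the SDFR1 probe sets (Dr.10103.1.A1_at), samsn1a for the SAMSN-1 probe set (Dr.919.1.A1_at) and cox6b1 for the cytochrome c oxidase VIb probe set (Dr.956.1.S1_at). The authors' deposited lists gave symbols for 5 others, among them crabp1a, elovl4 and bgl3, and the RefSeq table lists the last 2 as elovl4b and aspn.

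All differences below are log2 differences between quantile-normalised group means, so they compare a transcript with the rest of its array, and levels are on the same log2 scale. As deposited, the array medians ran between 1.19 and 3.86. An effect shared by all arrays of the same time cannot be told apart from development here. It would enter both the choice by controls and the course in morphants. Array 1 of the controls at 36 hours stood apart, with a mean correlation of 0.834 with the other arrays of its group and a median deposited standard error of 1.29 over the members. Without it the same rule took 102 probe sets, which included 58 of the 73. Markers of several tissues were detected, the brightest of blood, muscle, lens, liver and epidermis at or above the 98.7th percentile of probe sets, the heart marker at the 84.5th and the brightest photoreceptor marker at the 52.3rd. Transcripts of the targeted gene tnnt2a did not differ past the threshold at any time (morphant minus control -0.02, -0.02 and -0.31 at 36, 48 and 60 hours). The labels do not say how the morpholino acts, so this level does not check the knockdown.

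The transcripts were dim at the start. Across the members the median group mean was 1.27 in morphants and 1.36 in controls at 36 hours, and 23 members in each kind of embryo had a mean below the filter value of 0.62. At 48 hours the median was 2.64 in morphants and 2.46 in controls, and at 60 hours it was 3.16 in morphants and 3.75 in controls. Quantile normalisation keeps the typical tested probe set nearly level by construction, and it stood at 3.57 to 3.58 in morphants and 3.56 to 3.58 in controls. Array by array, the median over the members lay between 3.12 and 3.19 on the 3 morphant arrays at 60 hours and between 3.55 and 3.78 on the 3 control arrays, without overlap. The members were chosen for high control values at 60 hours, so nothing is read from this gap. At 36 hours the range was 1.43 to 1.56 in morphants and 1.44 to 1.68 in controls, with overlap. No fold is given where a group mean lay below 0.62. In whole embryos, fewer cells of a type and less RNA in each cell cannot be told apart.

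**Figure D1:**
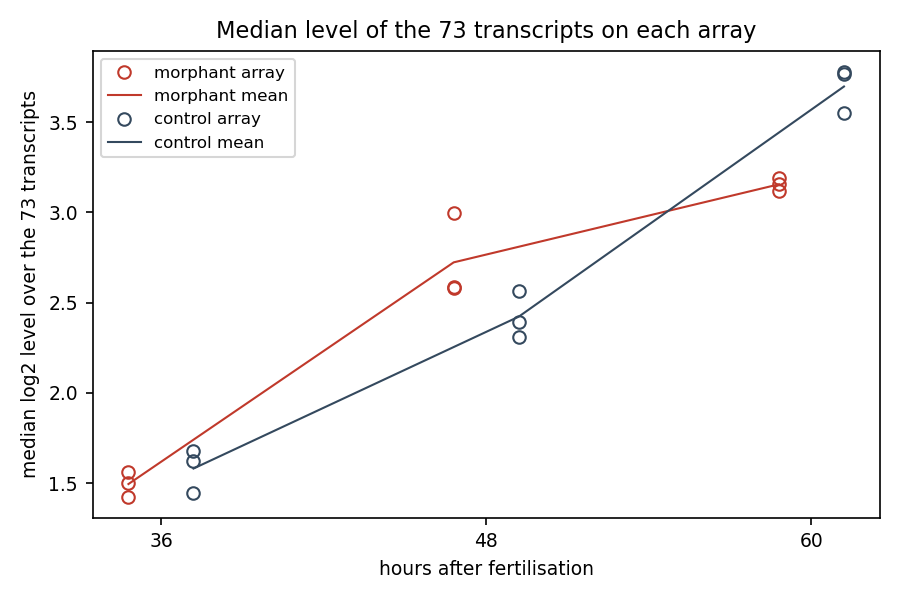
Median log2 level of the 73 transcripts on each array (vertical axis, quantile normalised) at 36, 48 and 60 hours after fertilisation (horizontal axis). Circles are arrays and lines join the group means of morphants (red, left) and controls (dark, right). The morphant arrays sit between 3.12 and 3.19 at 60 hours, below the control arrays at 3.55 to 3.78, whose values chose the transcripts.

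Most of the transcripts also rose in the morphant embryos. Between 36 and 60 hours 44 of the 73 were called higher in morphants and 0 lower (limma, Benjamini-Hochberg adjusted p under 0.05 over 11626 probe sets), where 6.86% of all probe sets were called higher and 4.98% lower. Without the adjustment 54 were higher and 0 lower. With the values as deposited, whose array medians differ, 9 members were called and the median difference was 1.05. The median member difference was 1.63, against -0.02 over all probe sets, and 70 of 73 differences were above 0. All 3 morphant arrays of 60 hours lay above all 3 of 36 hours for 54 members, against 17.3% of all probe sets. These counts are not fully free of the choice of members. Same-numbered morphant and control arrays deviated together at 36 hours (r 0.10, 0.14 and 0.27). Choosing low control values there could therefore favour low morphant values. At 60 hours, where the choice took high control values, r was 0.16, -0.06 and 0.27. High morphant values could be favoured there in the same way, except through array 2. The size of either was not tested. Of the 44 called, 15 started in morphants below the filter value at 36 hours. In controls the median difference was 2.08, which the choice of members sets at 1.5 or more. The difference was smaller in morphants than in controls for 57 of 73 members, a count that the choice of members also favours. Across the members the morphant and control differences had a Spearman rho of 0.62 (Pearson r = 0.76, n = 73 probe sets measured on the same arrays), given as a description. The difference of the courses themselves passed the threshold for 0 members in limma, 9 at an unadjusted p under 0.05, and it contains the control values that chose the members.

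The morphant rise lay mostly in the earlier step. Between 36 and 48 hours 34 members were called higher and 0 lower in morphants, against 7.99% and 7.7% of all probe sets, with a median member difference of 1.06. The 34 dropped to 22 without array 3 of the morphants at 48 hours. By limma 33 of these 34 were also called between 36 and 60 hours. Between 48 and 60 hours limma called 0 higher and 0 lower, against 0.585% and 0.37% of all probe sets, with 10 higher and 0 lower at an unadjusted p under 0.05 and 2 higher without array 1 of the controls at 36 hours. The median of that later step was 0.41, and 55 of 73 differences were above 0. In controls the medians of the earlier and later steps were 1.17 and 1.05. The later step was the larger one for 15 members in morphants and 31 in controls. It was smaller in morphants than in controls for 69 members, and the earlier step for 37. The choice of members set each control step at 0.3 or more, so nothing is read from these counts. In morphants 21 of 73 met the numbers that chose the members in controls, as did 1.32% of all probe sets, and 17 of the 21 were called between 36 and 60 hours. Among these 21 were galectin 1, asporin, FOXP2, neurogranin and the heart form of cytochrome c oxidase VIII.

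The 44 members called in morphants were brighter and less variable than the 29 that were not. Their median level over 18 arrays was 2.84, against 1.79 in the 29, and the median standard error of the difference was 0.35, against 0.65. That level takes in the later morphant arrays, so a larger rise itself adds to it. The test weighs each difference against its standard error, so smaller errors among the called are built into it. The 29 were not shown to be without a rise, and their median difference was 1.08. Where a fold could be given, for 29 of the 44, it ran between 2.09 and 33.4 with a median of 3.17. The other 15 started in morphants from a mean below 0.62 at 36 hours, so the sizes of their rises below are as measured and not fixed. Leaving out 1 morphant array of 36 hours moved 7 of the 44 rises by over 1.5 times. By grade, 26 of 45 weak, 15 of 19 moderate and 3 of 9 strong similarities were called. These counts describe how the calls fell among the members, and the difference between grades was not tested.

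**Figure D2:**
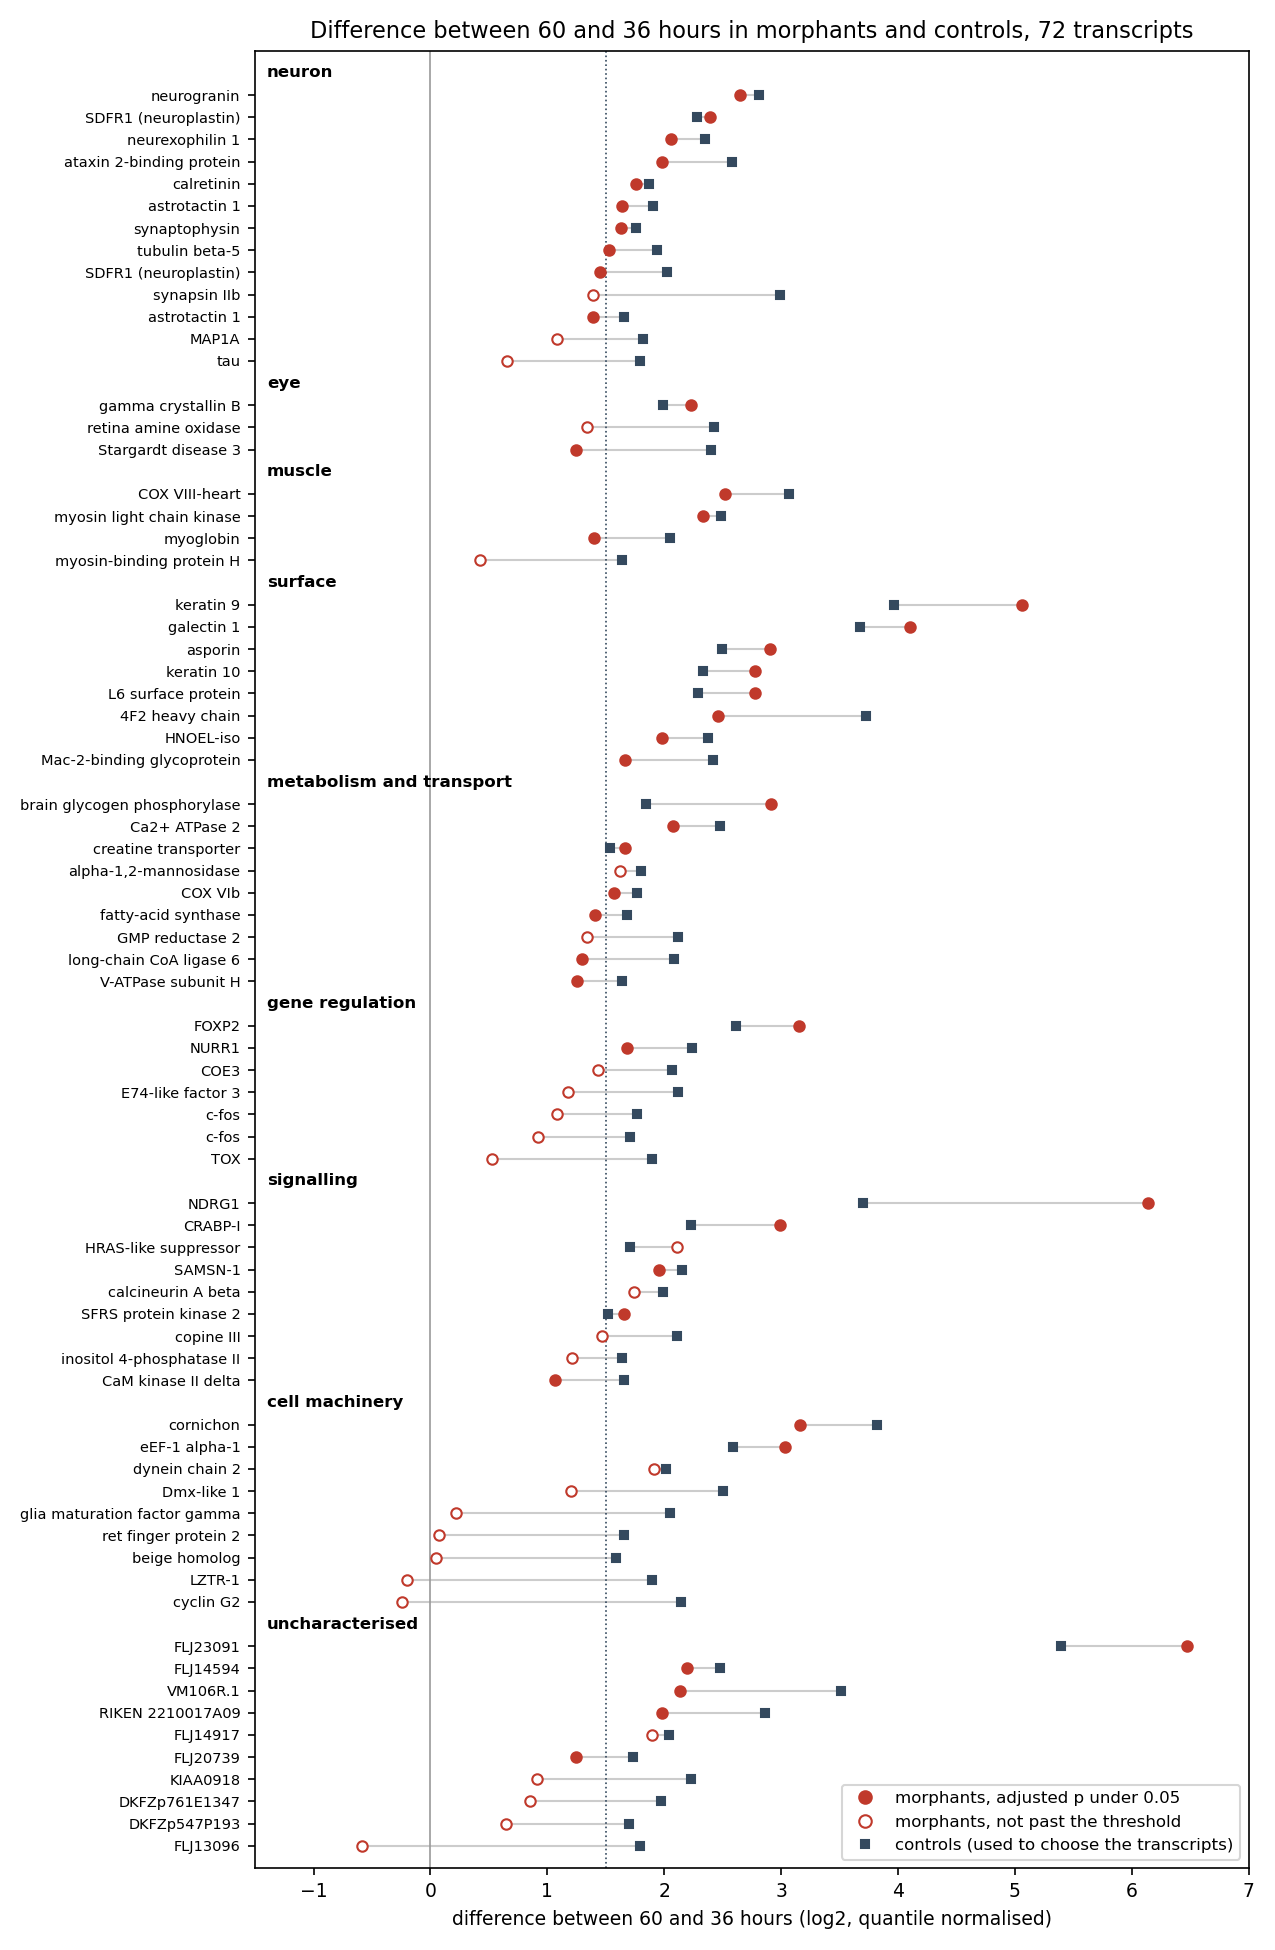
Difference between 60 and 36 hours (horizontal axis, log2) for 72 of the 73 transcripts, grouped by what the most similar protein does. Red circles are morphants, filled for the 44 with adjusted p under 0.05 and open for the other 28. Dark squares are controls, which chose the transcripts and so lie at or right of the dotted line at 1.5. The 8 skin, matrix and cell-surface transcripts are all filled. The groups were made by hand after the values were known.

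The roles used here were assigned to the most similar protein by hand after the values were known, so the counts per role are descriptions. Each count of rises stands beside 44 of 73 members and 6.86% of all probe sets called higher between 36 and 60 hours. Proteins assigned to neurons were the most similar for 13 transcripts, of which 10 rose in morphants between 36 and 60 hours. The assignment counts tubulin beta-5 here, and both probe sets of astrotactin 1 and of SDFR1, so these last proteins enter the 10 more than once. It places brain glycogen phosphorylase, FOXP2, NURR1 and COE3 under other roles. Synaptophysin is a membrane protein of synaptic vesicles, and the level of its probe set (Dr.11716.2.A1_at) was 3.29, 3.25 and 3.43 on the morphant arrays at 36 hours, 4.45, 4.93 and 4.78 at 48 hours, and 4.90, 4.86 and 5.11 at 60 hours. The control arrays read 3.72, 3.72 and 3.61 at 36 hours, 4.54, 5.04 and 4.74 at 48 hours, and 5.24, 5.55 and 5.53 at 60 hours. Morphants and controls did not overlap at 36 or 60 hours, with morphants lower, and overlapped at 48 hours. Neither of these differences passed (-0.36 at 36 hours, limma adjusted p = 0.377, and -0.48 at 60 hours, limma adjusted p = 0.181). Lack of overlap, here and below, describes the arrays, and the differences from controls that passed are listed by time further on. The morphant rise was 1.63 ± 0.17 (SE, with 3 arrays at each time, limma adjusted p = 5.93e-06), or 3.10-fold. A second probe set of the same UniGene cluster, outside the 73, rose by 1.41 in morphants (limma adjusted p = 0.000341).

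Calretinin, a calcium-binding protein of particular classes of neurons, was matched by a probe set (Dr.7048.1.A1_at) with morphant levels of 2.90, 3.12 and 3.50 at 36 hours, 5.18, 5.13 and 4.95 at 48 hours, and 4.68, 4.96 and 5.17 at 60 hours. Its control levels were 4.09, 3.80 and 3.85, then 5.10, 5.11 and 5.25, then 5.84, 5.84 and 5.67 at the same times. The morphant arrays lay below the control arrays at 36 and 60 hours and overlapped them at 48 hours. The rise in morphants, 1.76 ± 0.17 (limma adjusted p = 2.8e-06), was complete by 48 hours, with a later step of -0.15 ± 0.17 that did not pass.

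Neurexophilin 1, a secreted partner of neurexins at synapses, rose by 2.06 ± 0.27 in morphants (Dr.14867.1.A1_at, limma adjusted p = 7.1e-05). The transcript similar to ataxin 2-binding protein, a regulator of splicing in neurons, rose by 1.98 ± 0.36 (Dr.11261.1.A1_at, limma adjusted p = 0.00119). Both probe sets of astrotactin 1, which guides migrating neurons along glia in mice, rose as well, by 1.64 (Dr.14729.2.A1_at) and 1.39 (Dr.14729.3.S1_a_at). So did both of SDFR1, a cell-adhesion protein also called neuroplastin, by 1.45 (Dr.10103.1.A1_at) and 2.39 (Dr.16700.1.A1_at). The second of these started below the filter value in morphants. It had a difference of 0.12 between 36 and 48 hours and of 2.27 between 48 and 60 hours, neither past the threshold. Its call for 36 to 60 hours was lost when any of 4 morphant arrays was left out (limma adjusted p up to 0.203 over the settings that lost it). Neurogranin, a calmodulin-binding protein of dendrites, was below the filter value at 36 hours and rose by 2.65 ± 0.66 (Dr.12859.1.S1_at, limma adjusted p = 0.0126, and 0.0580 without array 3 of 36 hours, with rises of 2.21 to 3.27 without single arrays).

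The transcript similar to tubulin beta-5 (Dr.24758.1.A1_at), a microtubule subunit, rose by 1.53 ± 0.21 in morphants (limma adjusted p = 0.000105). A brighter probe set of the same UniGene cluster, with a mean level of 8.83, changed by -0.12 in morphants and -0.13 in controls, so the probe sets of this cluster did not share a course. The other 3 neuronal members did not pass in morphants. Synapsin IIb, which tethers synaptic vesicles, differed by 1.39 ± 0.49 in morphants and by 2.99 in controls, MAP1A by 1.08 ± 0.53 against 1.82, and tau by 0.65 ± 0.46 against 1.79. MAP1A and tau both bind microtubules in axons and dendrites. On the tau probe set (Dr.16118.1.A1_at) the morphant arrays read 3.25, 3.17 and 3.58 at 36 hours, above the control readings of 0.76, 2.23 and 3.05, and at 60 hours they read 3.07, 4.47 and 4.41, against 3.55, 3.85 and 4.02 in controls. The difference from controls at 36 hours, 1.32, did not pass (limma adjusted p = 0.269).

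Proteins of the eye were the most similar for 3 transcripts. Gamma crystallin B, a structural protein of lens fibres, was the brightest member (Dr.18937.1.A1_at). Morphant levels were 4.87, 5.40 and 5.22 at 36 hours, 7.21, 7.27 and 7.45 at 48 hours, and 7.19, 7.64 and 7.35 at 60 hours. Control levels were 6.44, 5.31 and 5.60 at 36 hours, 6.61, 6.93 and 6.78 at 48 hours, and 8.09, 7.71 and 7.54 at 60 hours. The kinds of embryo overlapped at 36 and 60 hours, and at 48 hours all morphant arrays were the higher ones. That difference, 0.54, did not pass (limma adjusted p = 0.386). In morphants the transcript rose 4.70-fold between 36 and 60 hours, by 2.23 ± 0.22 (limma adjusted p = 3.38e-06), nearly all of it by 48 hours.

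The Stargardt disease 3 protein is ELOVL4, an enzyme that lengthens very long fatty acids and is needed by photoreceptors, and an authors' list names the probe set (Dr.25442.1.A1_at) elovl4, the gene now called elovl4b. It read 2.59, 2.13 and 1.03 on the morphant arrays at 36 hours, 2.94, 2.49 and 3.25 at 48 hours, and 3.28, 3.14 and 3.04 at 60 hours. The control arrays read 2.81, 3.09 and 2.16, then 3.91, 3.98 and 3.83, then 5.15, 5.26 and 4.85. Morphants were below controls on every array at 48 and 60 hours, and the groups overlapped at 36 hours. The morphant rise of 1.24 ± 0.33 passed (limma adjusted p = 0.0176) and was lost without array 3 of 36 hours or without array 1 or 2 of 60 hours, with adjusted p between 0.0514 and 0.434 over the settings in which it was lost. The retina-specific copper amine oxidase transcript (Dr.7419.1.A1_at) differed by 1.34 ± 0.54 in morphants, which did not pass, and by 2.42 in controls.

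Muscle proteins were the most similar for 4 transcripts, and 3 rose in morphants. Myoglobin stores oxygen in muscle, and its probe set (Dr.636.1.S1_at) read 2.92, 3.29 and 3.07 in morphants at 36 hours, 4.26, 4.05 and 3.96 at 48 hours, and 4.67, 4.52 and 4.29 at 60 hours. In controls it read 3.47, 3.31 and 3.93, then 4.89, 4.73 and 4.98, then 5.78, 5.90 and 5.19. No morphant array reached the control range at any of the 3 times. The rise in morphants was nevertheless 2.64-fold, by 1.40 ± 0.21 (limma adjusted p = 0.000205).

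The heart form of cytochrome c oxidase VIII, a subunit of the last complex of the respiratory chain, was below the filter value at 36 hours and rose by 2.52 ± 0.50 in morphants (Dr.14903.1.S1_at, limma adjusted p = 0.00223). Myosin light chain kinase, which switches on contraction of smooth muscle, started below 0.62 and rose by 2.33 ± 0.69 (Dr.7877.1.A1_at, limma adjusted p = 0.034), and the call was lost when any of 4 of the 6 arrays compared was left out, with differences of 1.36 to 2.92. The transcript similar to myosin-binding protein H, of the thick filament, did not pass, with 0.42 ± 0.48 in morphants against 1.64 in controls (Dr.21227.1.A1_at). Its morphant arrays at 60 hours read 0.50, 2.40 and 2.63, so 1 array stood far below the other two.

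All 8 transcripts placed by hand under the skin, the extracellular matrix and the cell surface were called higher in morphants between 36 and 60 hours. Over all probe sets 6.86% were called higher, and the role was made after the values were known. The largest difference with a fold was that of the keratin 9 probe set (Dr.24899.1.A1_at), one of the filament proteins of epidermal cells. Morphant arrays read 1.43, 0.78 and 0.52 at 36 hours, 5.50, 6.47 and 5.97 at 48 hours, and 5.62, 5.99 and 6.30 at 60 hours. Control arrays read 3.27, 2.84 and 3.25, then 5.34, 6.31 and 5.98, then 7.17, 7.18 and 6.91. Morphants were lower on every array at 36 and 60 hours and overlapped controls at 48 hours. The morphant rise was 33.4-fold, by 5.06 ± 0.28 (limma adjusted p = 5.44e-09), of which 5.07 came before 48 hours and -0.01 after.

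The keratin 10 probe set (Dr.24487.1.A1_at) had the same shape. It read 3.92, 3.66 and 3.92 in morphants at 36 hours, 6.42, 6.79 and 6.69 at 48 hours, and 6.33, 6.62 and 6.88 at 60 hours. Controls read 5.51, 4.82 and 5.09, then 6.49, 6.66 and 6.48, then 7.64, 7.47 and 7.30. Again the groups were apart at 36 and 60 hours, with morphants lower, and overlapped at 48 hours. Its morphant rise was 6.87-fold, by 2.78 ± 0.17 (limma adjusted p = 2.07e-08). Keratins form a large family with similar sequences, and both similarities were graded weak, so the similarity alone ties neither probe set to one zebrafish keratin. An authors' list gives the keratin 10 probe set the symbol zgc:136930.

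Galectin 1, a secreted lectin, rose 17.2-fold in morphants, by 4.11 ± 0.80 (Dr.15088.1.A1_at, limma adjusted p = 0.00203), with 1.90 in the earlier and 2.21 in the later step. The fold was 11.4 without array 2 and 32.3 without array 1 of the morphants at 36 hours. Its morphant arrays read 2.84, -0.18 and 0.37 at 36 hours, 1.85, 2.98 and 3.89 at 48 hours, and 5.20, 5.11 and 5.04 at 60 hours, where the controls read 5.79, 5.75 and 4.58. From a start below 0.62, asporin, a small proteoglycan of connective tissue, rose by 2.90 ± 0.35 (Dr.9642.1.A1_at, limma adjusted p = 2.99e-05) and L6 surface protein, a membrane protein of epithelia, by 2.77 ± 0.54 (Dr.15942.1.S1_at, limma adjusted p = 0.00217). The 4F2 heavy chain, which carries amino acid transporters to the membrane, also started below 0.62 and rose by 2.46 ± 0.59 in morphants, between 1.52 and 2.98 without single arrays, against a difference of 3.73 in controls (Dr.22840.1.S1_at, limma adjusted p = 0.0101). HNOEL-iso and Mac-2-binding glycoprotein, a secreted protein that binds galectins, rose by 1.98 and 1.66. The second started below 0.62 and lost its call without array 3 of either morphant time.

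**Figure D3:**
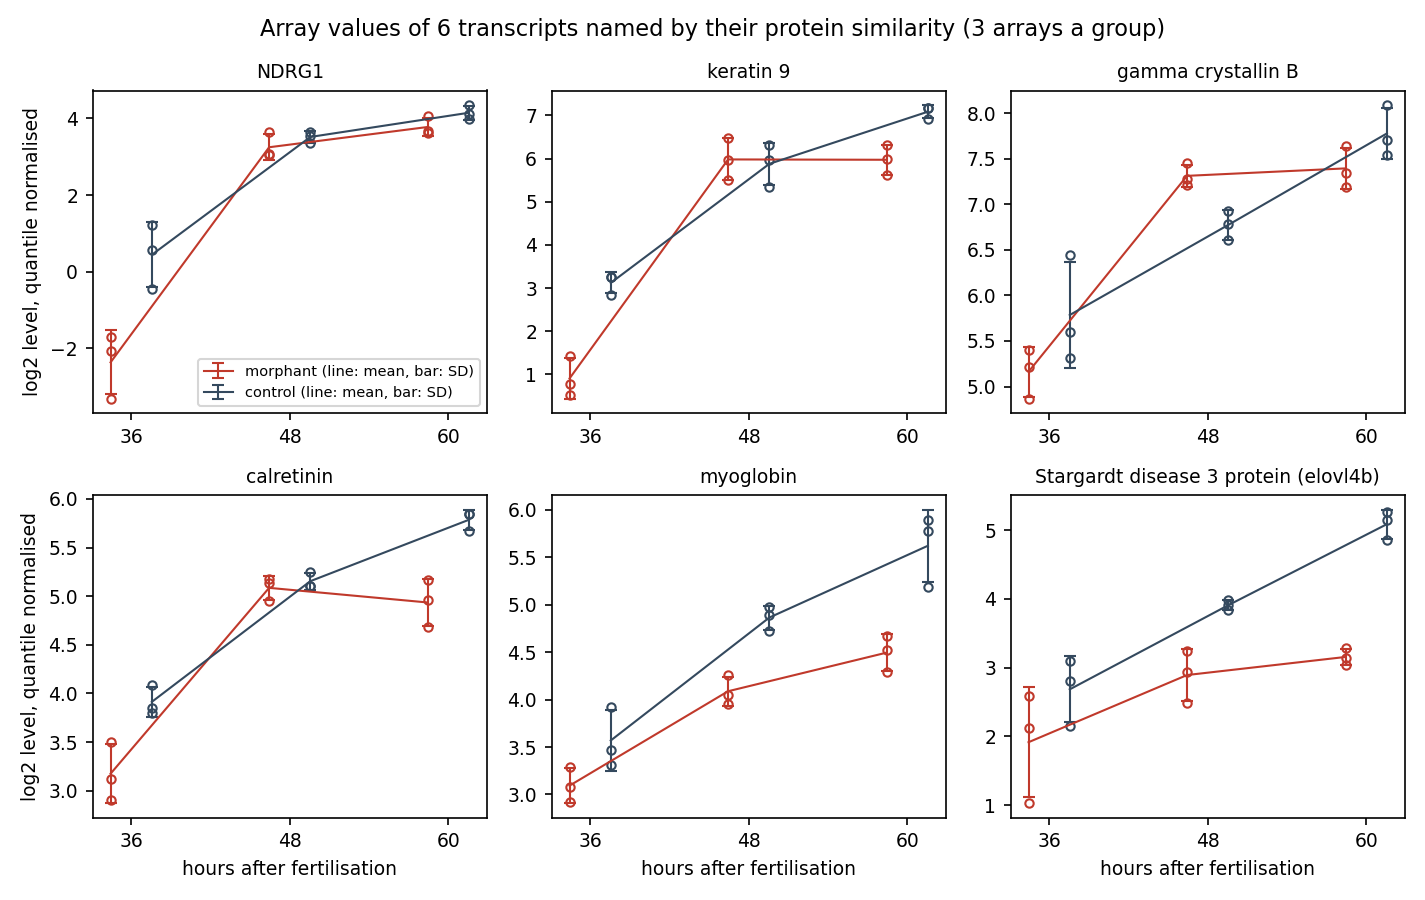
Array values of 6 transcripts, named by their most similar protein, with log2 level (vertical axes, scaled per panel) against hours after fertilisation. Circles are arrays, lines join the means of 3 arrays and bars are SD, with morphants in red on the left and controls in dark on the right. The keratin 9, gamma crystallin B and calretinin lines of the morphants are level after 48 hours. The control lines continue upward in every panel, which the choice of members required.

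Of 9 transcripts similar to enzymes and transporters, 7 rose in morphants. Brain glycogen phosphorylase, which releases glucose from glycogen, was matched by a probe set (Dr.11137.2.A1_a_at) whose morphant mean lay below the filter value at 36 hours and which rose by 2.91 ± 0.49 (limma adjusted p = 0.000605), against 1.84 in controls. Another probe set of its UniGene cluster rose by 2.99 in morphants (limma adjusted p = 0.0155). A transcript similar to the calcium-transporting ATPase 2, a calcium pump, rose 4.21-fold, by 2.07 ± 0.35 (Dr.12548.1.A1_at, limma adjusted p = 0.000579). The creatine transporter transcript, just inside the threshold with 1.54 in controls, rose by 1.66 ± 0.28 in morphants, all of it by 48 hours (Dr.16770.1.A1_at, limma adjusted p = 0.000669).

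The transcript similar to fatty-acid synthase, which builds palmitate, was above controls at all 3 times (Dr.6321.1.A1_at). Its morphant arrays read 2.98, 3.69 and 3.07 at 36 hours, 4.23, 3.81 and 4.33 at 48 hours, and 4.73, 4.55 and 4.69 at 60 hours. Its control arrays read 2.84, 2.08 and 2.51, then 2.74, 2.77 and 3.25, then 4.08, 4.19 and 4.21. Every morphant array was above every control array at each time, and no other member showed that. Of the differences from controls only that at 48 hours passed (1.20, limma adjusted p = 0.0297). Those at 36 hours (0.77, limma adjusted p = 0.242) and 60 hours (0.50, limma adjusted p = 0.285) did not. The morphant rise was 1.41 ± 0.24 (limma adjusted p = 0.00064).

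Long-chain fatty acid CoA ligase 6, which activates fatty acids, rose by 1.29 (Dr.185.1.A1_at), cytochrome c oxidase VIb by 1.57 (Dr.956.1.S1_at) and vacuolar ATPase subunit H, of the proton pump that acidifies organelles, by 1.25 (Dr.11059.1.S1_at) in morphants. Limma adjusted p-values were 0.00116, 0.00132 and 0.000778. GMP reductase 2, of nucleotide metabolism (1.34 ± 0.50, Dr.13277.1.A1_at), and an alpha-mannosidase, which trims glycans (1.62 ± 0.86, Dr.17180.1.A1_at), did not pass.

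Signalling and growth-control proteins were the most similar for 10 transcripts, and 5 rose in morphants. NDRG1 is a cytoplasmic protein induced by stress and differentiation, and its probe set (Dr.8090.1.A1_at) read -1.71, -2.07 and -3.31 in morphants at 36 hours, 3.04, 3.07 and 3.63 at 48 hours, and 4.05, 3.61 and 3.66 at 60 hours. Controls read 0.56, 1.22 and -0.46, then 3.54, 3.35 and 3.65, then 4.34, 3.98 and 4.11. Morphants were lower without overlap at 36 hours, and the groups overlapped at 48 and 60 hours. The morphant rise of 6.13 ± 0.43 passed (limma adjusted p = 3.54e-08), and its size is not fixed, since both kinds of embryo began below the filter value.

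The transcript similar to cellular retinoic acid-binding protein I (Dr.12552.1.S1_at), which an authors' list names crabp1a, started below 0.62 and rose by 2.99 ± 0.49 in morphants (limma adjusted p = 0.000464, 2.28 to 3.69 without single arrays), with 3.08 by 48 hours and -0.09 after. SAMSN-1, an adaptor protein described in blood cells, rose by 1.95 ± 0.46, and SFRS protein kinase 2, which phosphorylates splicing factors, by 1.66 ± 0.36. CaM kinase II delta, a calcium-dependent kinase, had the smallest difference that passed, 1.06 ± 0.25 (Dr.25517.1.S1_at, limma adjusted p = 0.0084, and 0.0502 without array 2 of 60 hours). HRAS-like suppressor (2.11 ± 0.88), the phosphatase calcineurin A beta (1.74 ± 0.69), copine III, which binds membranes in the presence of calcium (1.47 ± 0.52), and inositol 4-phosphatase II (1.21 ± 0.60) did not pass between 36 and 60 hours. HRAS-like suppressor passed for 36 to 48 hours alone, with 3.04 (Dr.19593.1.A1_at, limma adjusted p = 0.0252).

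Of 7 transcripts similar to regulators of genes, 2 rose in morphants. FOXP2, a forkhead transcription factor of the brain, started below 0.62 and rose by 3.15 ± 0.50 (Dr.13765.1.S1_at, limma adjusted p = 0.000371, 2.52 to 3.63 without single arrays), and NURR1, a nuclear receptor needed by dopaminergic neurons in mice, by 1.68 ± 0.41 (Dr.12803.1.A1_at, limma adjusted p = 0.0103). The NURR1 call was lost without array 3 of the morphants at 36 hours (limma adjusted p = 0.0585). COE3 (1.43 ± 0.75), a transcription factor of developing neurons, E74-like factor 3 (1.18 ± 0.46), an epithelial transcription factor, and TOX (0.53 ± 0.86), a chromatin protein first described in the thymus, did not pass.

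The 2 probe sets similar to c-fos, an immediate early gene switched on by stimulation, spread widely between the arrays of a group. On one of them (Dr.12986.1.A1_at) the morphant arrays read 3.70, 3.61 and -0.07 at 36 hours, 4.53, 1.38 and 3.48 at 48 hours, and 3.67, 4.05 and 2.27 at 60 hours. The control arrays read 3.75, 2.97 and -3.13, then 2.54, 2.09 and 2.42, then 3.50, 3.85 and 1.37. Array 3 was the lowest of its group at 36 and 60 hours in both kinds of embryo. The morphant difference was 0.92 ± 1.34, and that of the other probe set (Dr.12986.1.A1_a_at) was 1.08 ± 1.04. Neither passed.

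Of 9 transcripts similar to proteins of general cell machinery, 2 rose in morphants, those of cornichon, which escorts cargo out of the endoplasmic reticulum (3.16 ± 0.75 from a start below 0.62, Dr.15131.1.A1_at, limma adjusted p = 0.00929), and of elongation factor eEF-1 alpha-1, which delivers aminoacyl-tRNA to the ribosome (3.03 ± 0.42, Dr.9415.1.A1_at, limma adjusted p = 0.000112). The elongation factor transcript read 0.37, 1.26 and 0.34 in morphants at 36 hours and 3.42, 3.71 and 3.93 at 60 hours, against 2.57, 0.47 and 2.12 and then 4.48, 4.59 and 3.86 in controls. This role held 5 of the 6 lowest morphant differences. It was made by hand after the values were known, so nothing is read from that count. Cyclin G2, a cyclin linked to cell cycle arrest, differed by -0.24 ± 0.65 (Dr.21399.1.A1_at), LZTR-1, an adaptor of a ubiquitin ligase, by -0.20 ± 0.74 (Dr.19626.1.S1_at), the beige homolog, a regulator of lysosomes, by 0.05 ± 0.35 (Dr.16565.1.A1_at), ret finger protein 2, a ubiquitin ligase, by 0.07 ± 0.67 (Dr.16750.2.A1_at) and glia maturation factor gamma, a regulator of actin branching, by 0.22 ± 0.71 (Dr.18605.1.A1_at). Dmx-like 1 (1.20 ± 0.46) and the dynein intermediate chain 2 (1.91 ± 0.98) did not pass either. Another probe set of the dynein UniGene cluster did pass, with a rise of 2.01 in morphants (limma adjusted p = 0.00192).

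The beige homolog shows what such a course looks like on the arrays. Its morphant levels were 1.98, 1.95 and 1.67 at 36 hours, 1.32, 1.23 and 1.47 at 48 hours, and 1.67, 2.22 and 1.84 at 60 hours. Its control levels were 1.36, 1.57 and 0.84, then 1.20, 1.37 and 2.14, then 2.69, 3.14 and 2.71. Morphants were above controls without overlap at 36 hours and below them without overlap at 60 hours. Neither difference passed (0.61, limma adjusted p = 0.449, and -0.94, limma adjusted p = 0.199). The choice of members by low control values at 36 and high ones at 60 hours favours such a crossing, so nothing is read from it. Cyclin G2 began high in morphants at 1.99, 1.80 and 1.72, where controls read 0.08, -0.56 and -1.0 at 36 hours, and at 60 hours the groups overlapped at 2.18, 1.33 and 1.26 in morphants and 0.99, 2.24 and 1.72 in controls. Its difference from controls at 36 hours, 2.33, did not pass (limma adjusted p = 0.192).

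Uncharacterised proteins were the most similar for 10 transcripts, and 5 rose in morphants. The largest difference of all 73 was that of the transcript similar to FLJ23091 (Dr.26538.1.A1_at), 6.47 ± 2.07 (limma adjusted p = 0.0492). Its arrays disagreed, with -6.41, -5.44 and 3.61 in morphants and -6.12, -0.62 and 3.97 in controls at 36 hours, the difference was 4.63 to 9.64 without single arrays, and the call was lost in 21 other settings. FLJ14594 rose by 2.20 ± 0.35 (Dr.12903.1.A1_at, limma adjusted p = 0.000387), the worm protein VM106R.1 by 2.13 ± 0.59 from a start below 0.62 (Dr.15592.1.A1_at, limma adjusted p = 0.0226, a call lost without any of 4 morphant arrays), and FLJ20739 by 1.24 ± 0.26 (Dr.13953.1.A1_at, limma adjusted p = 0.00407). The transcript similar to a mouse RIKEN cDNA product rose by 1.98 ± 0.62 (Dr.14133.1.A1_at, limma adjusted p = 0.043), a call lost in 16 other settings. FLJ14917, KIAA0918, DKFZp761E1347, DKFZp547P193 and FLJ13096 did not pass, with differences between -0.59 and 1.90.

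Set against controls at the same time, the members went both ways in morphants at 36 hours, and most were lower at 60 hours. These values share the control arrays that chose the members, so the counts are given beside the background and nothing is read from them. At 36 hours limma called 0 members higher and 3 lower, against 0.0946% and 0.086% of all probe sets, with a median difference of 0.02. The middle 50% of members lay between -0.62 and 0.75, against -0.27 and 0.31 over all probe sets, and 12 members were higher and 10 lower by at least 1. The 3 called were those similar to NDRG1 (-2.80 ± 0.43, between means that were both below 0.62, so of no fixed size), keratin 9 (-2.21 ± 0.28) and keratin 10 (-1.31 ± 0.17). All 3 morphant arrays were above all control arrays for 8 members and below for 8, where each happened for 6.93% of probe sets. Without array 3 of the controls 4 members were called higher and 7 lower.

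At 48 hours 1 member was called higher, fatty-acid synthase (1.20 ± 0.24), and 0 lower, against 0.37% and 0.198% of all probe sets. The call was lost without array 1 or 2 of the controls or array 1 or 3 of the morphants. The median was 0.16. All 3 morphant arrays were above the control arrays for 10 members and below for 6, against 13.1% and 11.8%.

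At 60 hours 0 members were called higher and 4 lower, against 0.68% and 0.241% of all probe sets. The 4 were those similar to the Stargardt disease 3 protein (-1.93 ± 0.33), myoglobin (-1.13 ± 0.21), keratin 10 (-0.86 ± 0.17) and calretinin (-0.85 ± 0.17). The median was -0.47, and 63 of 73 differences were below 0. All 3 morphant arrays were below the control arrays for 26 members and above for 1, fatty-acid synthase, against 11.3% and 8.89% of probe sets. By role, these 26 held 7 of the 13 neuronal members, 5 of the 8 of the skin and surface, 5 of the 10 uncharacterised and 2 of the 4 of muscle. The count of 4 dropped to 0 without array 2 of either kind at 60 hours and to 1 without array 1 of the controls or array 3 of the morphants at that time, and it was 7 without array 1 of the controls at 36 hours.

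**Figure D4:**
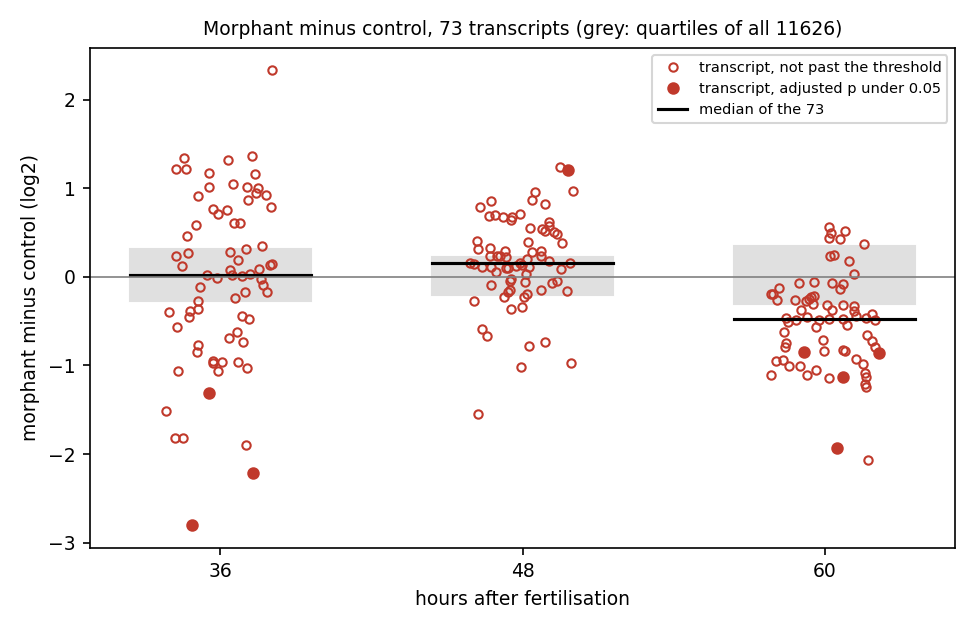
Morphant minus control (vertical axis, log2) for each of the 73 transcripts at 36, 48 and 60 hours after fertilisation (horizontal axis, points spread sideways for legibility). Filled points passed the threshold, black lines are medians (0.02, 0.16 and -0.47) and grey boxes span the quartiles of all 11626 probe sets. At 60 hours most points lie below 0.

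The authors' deposited tables list their own log2 ratio of morphant over control and the probability that it is positive, after combining the 3 arrays of a group. In the authors' deposited table of 36 hours 65 members were listed, 44 with a ratio below 0. In that of 48 hours 60 of 73 were below 0 and 26 had a probability under 0.2, and in that of 60 hours 41 of 73 were below 0 and 11 had a probability under 0.2. The median ratio over the listed members was -0.006, -0.12 and -0.0005 at 36, 48 and 60 hours, so many of these ratios were near 0. The authors' deposited tables gave elovl4b ratios of -0.04, -1.13 and -1.66 at the 3 times, and myoglobin -0.03, -0.85 and -0.62. Keratin 10 had -1.18, -0.12 and -0.53, and calretinin -0.04, -0.10 and -0.18. Fatty-acid synthase, called higher at 48 hours here, had 0.31, 0.04 and 0.64. Their scaling differs from the one used here, and the values are not set against each other.

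Members just inside the threshold were those similar to SFRS protein kinase 2, the creatine transporter and the beige homolog, with control differences of 1.51, 1.54 and 1.59. Just outside lay transcripts similar to Purkinje cell protein 4, DKFZp566A1524 and 7-dehydrocholesterol reductase, at 1.499, 1.497 and 1.496, with morphant differences of 0.14, 1.09 and 1.32.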

How the data were processed

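Whole-embryo RNA was measured on 18 arrays in 6 groups of 3, taken from the sample titles. The authors deposited log2 expression values for each array, with standard errors on the log2 scale, which are treated here as a score of precision. They were estimated with the puma package, per the deposited readme, and the base of the logarithm was taken as 2, which the sources used here do not state. The authors' ratios of morphant over control are log2 values, and each has a probability of being positive, both per the deposited readme.

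Without 115 manufacturer controls, 15502 probe sets were quantile normalised (limma 3.58.1, R 4.3.3). Probe sets with a mean over 18 arrays below the 25th percentile (0.62) were dropped, leaving 11626. Group means were fitted for all 6 groups with limma's moderated statistics, with prior variances following the intensity (12 residual degrees of freedom, 6.24 prior), two-sided, with Benjamini-Hochberg adjustment and a threshold of 0.05. The procedure was tested on simulated data. Precision is limited by the number of arrays: over all probe sets a difference had a median standard error of 0.28.

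The members, lists, roles and comparisons were chosen with earlier results of these data known. The rule for names took the largest and smallest morphant differences, the largest differences between embryos at each time, the values next to the threshold and up to 3 members of each keyword class. It named 45 members, and the other 28 are mentioned as well. One member is counted throughout but not reported here by name or value. Protein descriptions came from a deposited table, and symbols from a RefSeq table of assembly GRCz12tu or the authors' lists. Same-numbered morphant and control arrays deviated together at 36 hours (r 0.10, 0.14 and 0.27) and 48 hours (0.18, 0.20 and 0.18), so the numbers were taken as pairs there. The reported fit has no block, so its p-values against controls leave these pairs out. The blocked fit is an alternative. It gives each number a shift shared by all 6 groups, so it does not model pairs within a time. Alternatives were other normalisations, filters, thresholds, weights, fits and a replicate block, and leaving out each array.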

Additional observations from a re-analysis of the deposited data

How the results depend on the processing

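The count of members called higher in morphants between 36 and 60 hours was 44 and ran between 37 and 49 when single arrays were left out. Called higher between 36 and 48 hours were 34, with a range of 22 to 41, the 22 without array 3 of the morphants at 48 hours, and between 48 and 60 hours 0, with a range of 0 to 2, the 2 without array 1 of the controls at 36 hours. Members numbered 64 to 102, calls at 36 hours 0 to 4 higher and 3 to 7 lower, the highest of both without array 3 of the controls, calls at 48 hours 0 to 1 higher, and calls at 60 hours 0 to 7 lower. Medians ran between 1.58 and 1.65 for 36 to 60 hours in morphants, 1.05 and 1.30 for 36 to 48 hours, 0.29 and 0.44 for 48 to 60 hours, and for morphants minus controls between -0.16 and 0.10, 0.11 and 0.21, and -0.59 and -0.40 at the 3 times.

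The choice of members rests on the normalisation. With values as deposited the rule took 8 probe sets, 3 of them among the 73, and with arrays centred on their medians 70 of the 73 remained. With values as deposited the calls among the 73 were 9 for 36 to 60 hours, 9 for 36 to 48 hours and 0 in each comparison with controls, and the medians were 1.05 for 36 to 60 hours, -0.29 for 48 to 60 hours, and 0.33, -0.57 and -0.058 for morphants minus controls. The differences between 60 and 36 hours in morphants then changed sign for TOX (-0.029), tau (-0.0051), the beige homolog (-0.51), ret finger protein 2 (-0.40), glia maturation factor gamma (-0.32) and myosin-binding protein H (-0.15). The cause was not tested. Members numbered 145 with no filter, 27 with a filter at the median and 43 with a control rise of at least 2. The filter at the median left fewer members tested, with 23 and 20 called for 36 to 60 and 36 to 48 hours and medians of 1.34 for 36 to 48 hours and -0.24 for morphants minus controls at 36 hours. With weights from the deposited standard errors the medians were 1.5 for 36 to 60 hours and -0.14 at 36 hours, and 1 member was called lower at 36 hours, 7 at 60 hours and 1 higher between 48 and 60 hours. With only the groups compared in the fit, 3 were called higher between 48 and 60 hours, 0 lower at 36 hours, 2 higher and 2 lower at 48 hours, and 2 lower at 60 hours. Without the intensity trend 2 were called lower at 60 hours. With the replicate block 46 and 38 members were called for 36 to 60 and 36 to 48 hours, with 0 higher and 3 lower at 36 hours, 1 higher and 0 lower at 48 hours and 5 lower at 60 hours against controls, and the block moved no count of calls by over 1.5 times. That block spans all times, so these counts do not show what pairing within a time would change.

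Among single transcripts, the morphant difference between 60 and 36 hours of LZTR-1 was 0.37 with weights. Leaving out single arrays, it ran between -1.06 and 0.30 for LZTR-1, -0.34 and 0.86 for ret finger protein 2, -0.11 and 0.16 for the beige homolog, -0.16 and 0.41 for glia maturation factor gamma, -0.18 and 1.12 for TOX, and -0.32 and 1.56 for the c-fos probe set Dr.12986.1.A1_at, so each changed sign. None of these passed the threshold in the reported fit. Of the 44 calls, 35 were lost in at least 1 setting and 10 when a single array was left out. Same-numbered morphant arrays of 60 and 36 hours had correlations of 0.0610 to 0.0754, each the best of its number, and at 60 hours morphant and control pairs had 0.16, -0.06 and 0.27.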
